A study of Mus musculus with 34 samples.

Results

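The cells, MOSJ-Dkk-1, come from a mouse tumour of bone and cartilage lineage. A lentiviral insert makes them produce and release human Dkk-1 at all times, driven by the CMV promoter. Starved confluent cultures with DkkMo or without morpholino (NT) are compared here. The comparison took every library that the labels give as stress DkkMo (3) or stress NT (3), which is 6 of the 34 samples of the series and 6 of the 18 cultures. DkkMo is a vivo morpholino, an antisense oligonucleotide with a delivery group, directed against the start of the human Dkk-1 transcript. By the protocol it was given at 5 µM from 24 h after seeding, while a figure legend of the paper gives a higher dose. Cells under nutritional stress were held at confluence for 48 h within a span of 4 days in which the medium was not changed, and were collected after a week of treatment. NT cultures received no morpholino, although their treatment label reads vehicle. All groups carried the Dkk-1 vector, and all cells came from one modified line. A further 3 cultures under the same stress received 5 µM scrMo, a control morpholino. The protocol calls it scrambled, and the paper says that it was designed with mismatches. The 6 cultures of DkkMo and NT in log phase were collected on day 6 with medium changes every 2 days. The scrMo and log phase cultures are given beside the comparison. Mouse Dkk1 and the human transgene were not analysed here, so the target of DkkMo was not checked at the transcript level.

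Dickkopf-1 is a secreted antagonist of canonical Wnt signalling. It binds the co-receptors Lrp5 and Lrp6, which keeps β-catenin from accumulating and from activating its target genes with Tcf/Lef factors. In bone, canonical Wnt signalling drives osteoblast maturation, and Dkk-1 made by osteosarcoma cells is known for blocking bone repair. The sequencing asked which genes and pathways respond when Dkk-1 is blocked in starved cells.

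The values compared are variance-stabilised log2 values of RNA-seq counts, and a difference is the mean of the 3 DkkMo cultures minus the mean of the 3 NT cultures on that scale. Levels of single genes are given as normalized counts, which are reads divided by the size factor of the library. A fold is a ratio of mean normalized counts and can exceed the difference on the deposited scale. The 1.5-fold threshold is instead a difference of 0.585 on the deposited scale, except where another scale is named. The 3 NT libraries held 34.9 to 40.5 M reads (megareads) on the listed genes and the 3 DkkMo libraries 27.5 to 31.4 M. The groups did not overlap in depth (exact permutation test, two-sided, n = 3 each, p = 0.1, the smallest that 3 against 3 allows), and the part of depth in the results was not tested. The listed mitochondrial genes took 1.54 to 1.67% of reads in NT, 1.74 to 1.88% in DkkMo and 5.30 to 5.80% in scrMo cultures. The messengers mt-Atp6, mt-Co3, mt-Nd4 and mt-Nd4l were not listed, so this is a part of the mitochondrial reads. Of 31 osteoblast and chondrocyte lineage genes, 16 were among the genes tested, with Spp1, Ifitm5, Sox9, Runx2 and Sparc well expressed (mean normalized counts in NT of 65364, 8646, 9004, 5626 and 4071), Alpl at only 13.8, and Sp7, Ibsp, Acan and Comp not listed. The summed normalized count of the 16 was 92988 to 99063 in NT and 74564 to 75083 in DkkMo cultures, most of it from Spp1. In the scrMo cultures under stress the sum was 92393 to 97293.5, which overlapped NT. Of 18 leukocyte markers 6 were tested. Their summed normalized count was 2253 to 2567 in NT and 2445 to 2504 in DkkMo cultures, with Cd68 and Csf1r at the highest levels, Ptprc at 4.89 and 15.1, and Adgre1, Itgam and Cd3e not listed. Of 19 endothelial, epithelial, adipocyte, muscle and neural markers 5 were tested, with summed counts of 596 to 664 and 588 to 664.

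Past the fold threshold on the deposited scale, DkkMo moved a limited set of genes away from NT. At an adjusted p below 0.05 and a difference over 1.5-fold, 186 genes were upregulated and 255 downregulated out of 16562 tested, which is 1.12% and 1.54% (2.66% together). Without the fold threshold, 3148 genes were higher and 3759 lower, 22.7% of all genes being lower and 41.7% passing in either direction, so that the fold threshold and not the p set the number of DE genes. Values of the DkkMo and NT groups did not overlap for any of the 441 DE genes, and did not overlap for 59.4% of all genes tested. Closest to the threshold were Taf7l (0.5852) and Fmnl3 (-0.5856) inside it and Zcchc4 (-0.5848) and Pcdh10 (0.5845) outside it, on the log2 scale. The downregulated genes were the more abundant, with a median normalized count of 3258 against 371 for the upregulated genes and 505 for all genes. Of the genes matched to the annotation, 87.1% of the downregulated were protein-coding, 76.2% of the upregulated and 75.0% of all, and pseudogenes made up 5.10%, 3.31% and 9.72%.

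The deposited scale compresses differences of genes with few reads. With normalized counts instead, as log2 after adding 1, 1657 genes were called higher (10%) and 660 lower (3.99%), so that the share of DE genes that were higher went from 42.2% to 71.5%. Limma voom on the recovered reads gave 1635 (9.87%) and 670 (4.05%). Each of the 186 and 255 DE genes was called in the same direction on both scales. The genes below the lower quartile of mean counts included 5 upregulated genes on the deposited scale and 860 on the log2 count scale. Quantile normalization of the deposited values left 144 genes lower and 191 higher, of which 126 and 158 were among the DE genes given above, and the share that were higher was 57.0%.

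**Figure D1:**
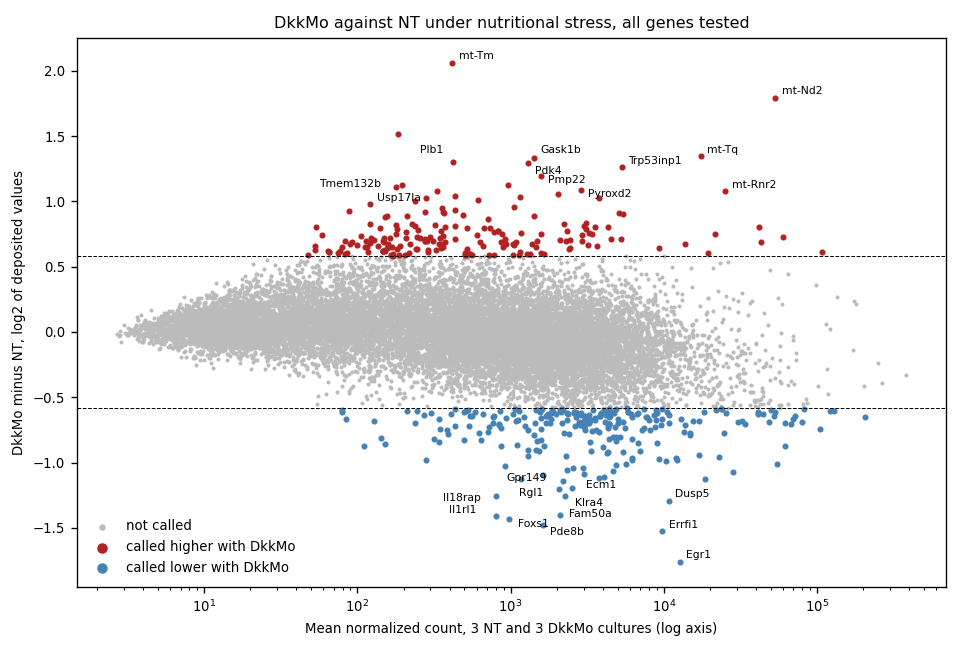
Each point is a gene, with its mean normalized count over the 6 cultures on the x axis (log scale) and the DkkMo minus NT difference in the log2 of deposited values on the y axis. Dashed lines mark 1.5-fold, red and blue points are the 186 upregulated and 255 downregulated genes, and labels name the 12 largest rises and falls, with predicted genes left unlabelled. Few points at the low end of the x axis lie outside the dashed lines, and most blue points lie in its upper part.

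The 12 largest rises among genes with a standard symbol comprised 4 transcripts of the mitochondrial genome, described further on, and 8 nuclear genes. Pdk4 (chr6:5483351-5496309 in GRCm38), the kinase that restrains entry of pyruvate into the citric acid cycle, stood at 585, 678 and 665 normalized counts in the NT cultures and at 1728, 2051 and 2107 in the DkkMo cultures. The groups lay far apart, and DkkMo was 3.05-fold higher, a log2 difference of 1.30 (SE 0.08, adjusted p = 2.2e-09). Trp53inp1, a p53-inducible stress protein, read 3197, 2788 and 3054 in NT and 6958, 8174 and 7762 in DkkMo cultures, 2.53-fold higher (1.26, SE 0.12, adjusted p = 2.0e-07). Both genes were also higher in the scrMo cultures, at 1465, 1261 and 1233 for Pdk4 and 10380.4, 11670.1 and 11470.1 for Trp53inp1, and DkkMo differed from scrMo by 0.49 (adjusted p = 3.4e-04) and -0.53 (adjusted p = 0.0029). Gask1b, a Golgi-associated kinase-like protein, was 3.09-fold higher with DkkMo (639.8 to 779.5 in NT, 1907 to 2354 in DkkMo, 2619 to 3114 in scrMo). Pmp22, a tetraspan membrane protein of myelin and other tissues, was 2.68-fold higher (792 to 932, 2216 to 2412 and 2358 to 2673). Pyroxd2, an oxidoreductase-domain protein, was 2.30-fold higher (1718 to 1771, 3875 to 4189 and 4034 to 4411). In Pmp22 and Pyroxd2, DkkMo minus scrMo was -0.12 (adjusted p = 0.32) and -0.06 (adjusted p = 0.51).

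Other genes rose further with DkkMo than with scrMo. Plb1, which encodes phospholipase B1, stood at 133 to 163 in NT, 660.5 to 722 in DkkMo and 417 to 509 in scrMo cultures, and DkkMo exceeded NT by 1.30 (SE 0.08, adjusted p = 1.4e-09) and scrMo by 0.43 (SE 0.08, adjusted p = 8.1e-04). Usp17la, a deubiquitinase from a family of near-identical copies whose reads may be split uncertainly, stood at 129 to 156, 497 to 554 and 271 to 319, and DkkMo exceeded scrMo by 0.52 (SE 0.06, adjusted p = 2.9e-06). Among the 8 nuclear genes the widest contrast between the morpholinos was in Tmem132b (chr5:125531774-125792583), a single-pass membrane protein. Its NT and scrMo cultures overlapped, and its DkkMo cultures lay above both. It read 44.5, 50.8 and 54.1 in NT, 289, 328 and 303 in DkkMo and 57.3, 43.1 and 35.0 in scrMo cultures. DkkMo exceeded NT 6.16-fold (1.11, SE 0.07, adjusted p = 8.2e-10) and exceeded scrMo by 1.15 (SE 0.07, adjusted p = 4.5e-10), while scrMo minus NT was -0.04 (adjusted p = 0.62).

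The 12 largest falls among genes with a standard symbol began with Egr1 and Errfi1. Egr1, an immediate early zinc-finger factor induced by MAP kinase signalling, stood at 20008, 19556 and 19652 in NT and at 6023, 4815 and 6142 in DkkMo cultures, 3.49-fold lower (-1.76, SE 0.10, adjusted p = 4.0e-10). Errfi1, a feedback inhibitor of the EGF receptor, stood at 15146, 13845 and 14707 in NT and 5276, 4555 and 4813 in DkkMo cultures, 2.98-fold lower (-1.52, SE 0.09, adjusted p = 1.4e-09). Dusp5, the nuclear phosphatase of ERK, stood at 14815, 16071 and 15299.9 in NT and 6664, 5736 and 5976 in DkkMo cultures, 2.51-fold lower (-1.29, SE 0.10, adjusted p = 3.7e-08). The scrMo cultures were near the DkkMo cultures in all of these, with mean counts of 4784 for Egr1, 3958 for Errfi1 and 5532 for Dusp5.

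Pde8b, a cyclic AMP phosphodiesterase, was 3.43-fold lower with DkkMo (2401 to 2718 in NT, 699 to 771 in DkkMo, 466 to 599.6 in scrMo cultures), and Foxs1, a forkhead factor, 3.72-fold lower (1469.9 to 1640.5, 384 to 441 and 429.8 to 461). Il1rl1, the receptor of interleukin-33, was 3.87-fold lower (1246 to 1328, 296 to 391 and 163 to 164), and Il18rap, a subunit of the interleukin-18 receptor, 3.28-fold lower (1202 to 1258, 349 to 422 and 185 to 232). In Il1rl1 and Il18rap, the scrMo cultures lay below the DkkMo cultures. Klra4, a Ly49 receptor gene from a multigene family in which reads may be split uncertainly, was 2.71-fold lower. Rgl1, an exchange factor for Ral, was 2.61-fold lower and Gpr149, an orphan receptor, 2.46-fold lower. Ecm1, an extracellular matrix glycoprotein, was 2.54-fold lower and sat at 1384 to 1470.1 in DkkMo cultures, under the 2158 to 2298 of scrMo cultures (-0.55, SE 0.14, adjusted p = 0.0084).

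Fam50a (chrX:74313033-74320149), a nuclear protein, departed from the other falls. It stood at 3067, 3371 and 3134 in NT, 1016, 1038 and 1058 in DkkMo and 2841, 2593 and 2793 in scrMo cultures. DkkMo was 3.08-fold below NT (-1.40, SE 0.07, adjusted p = 3.0e-10), DkkMo minus scrMo was -1.20 (adjusted p = 1.7e-09), and scrMo minus NT was -0.20 (adjusted p = 0.035). Hsd17b4, a peroxisomal enzyme of fatty acid β-oxidation, likewise had its lowest level with DkkMo, while its NT and scrMo cultures overlapped. It read 1177, 1105 and 1133 in NT, 589, 580.1 and 583 in DkkMo and 1079.5, 1194 and 1208 in scrMo cultures, 1.95-fold lower with DkkMo than NT (-0.73, SE 0.05, adjusted p = 1.0e-08). Further genes of this kind, chosen after their values were seen, were Tfcp2, a transcription factor (1751 to 1801 in NT, 811 to 834 in DkkMo, 2041 to 2166 in scrMo), Malsu1, an assembly factor of the mitochondrial ribosome (79206 to 81304, 41695 to 44795 and 89582 to 92248), and Thoc7, a subunit of the mRNA export complex THO (939.8 to 1080.5, 506 to 558 and 997 to 1094). On the side of the rises were Aox1, an aldehyde oxidase (2273 to 2379.8, 3549 to 4465 and 2129 to 2488), and Apc2, a relative of the β-catenin destruction complex protein Apc (69.5 to 96.1, 238 to 299 and 47.7 to 66.2). Their log2 differences from NT were -0.90, -0.87, -0.70, 0.76 and 0.75.

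Aldh1a1, a retinaldehyde dehydrogenase that detoxifies aldehydes, was rare in these cells. Its normalized counts were 18.3, 19.7 and 18.0 in NT, 4.06, 6.13 and 2.33 in DkkMo and 39.5, 16.5 and 26.2 in scrMo cultures, so that a DkkMo library held only 2 to 6 reads of it, and an NT library 19 to 21. Every DkkMo culture was below every NT and scrMo culture. The difference on the deposited scale was -0.27 (SE 0.06, adjusted p = 8.9e-04), short of 1.5-fold, and the ratio of mean counts was 4.48. On the log2 count scale the difference was -2.00 (adjusted p = 8.9e-05), which is a call, and DkkMo was also below scrMo on the deposited scale (-0.37, SE 0.06, adjusted p = 1.3e-04).

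**Figure D2:**
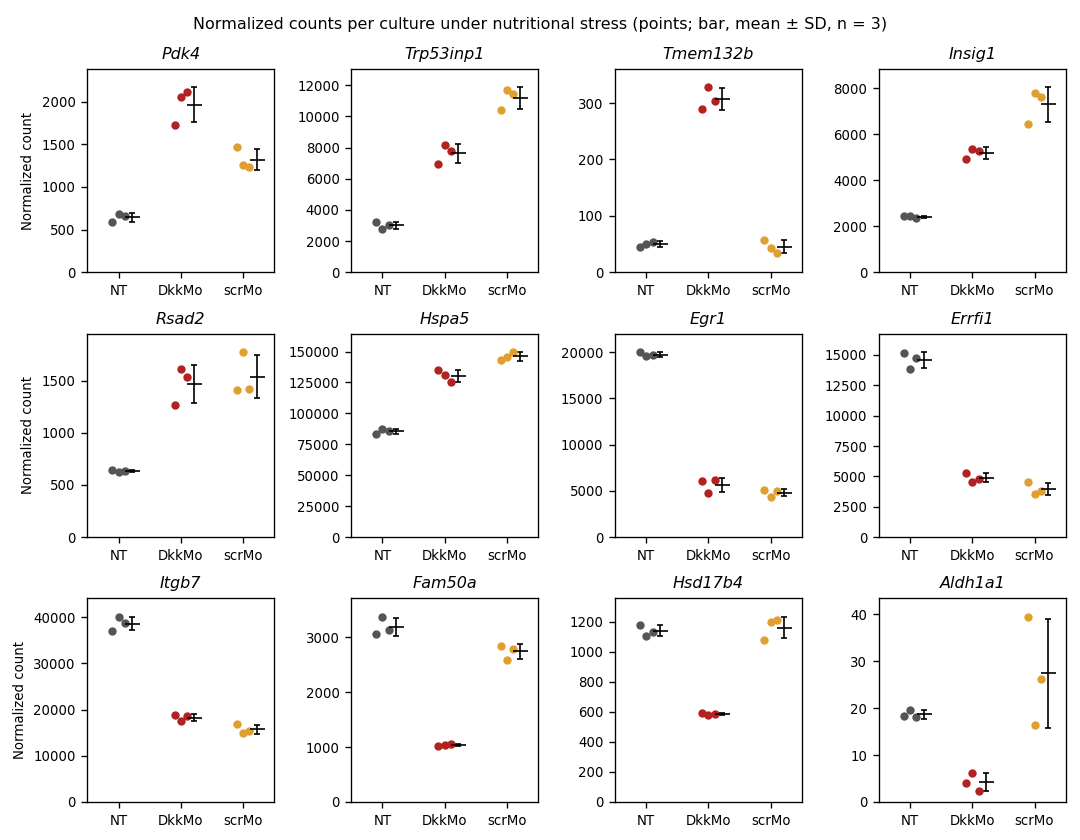
Normalized counts of 12 genes in the NT, DkkMo and scrMo cultures under nutritional stress, each axis starting at 0, with points for cultures and bars for mean ± SD (n = 3). In Tmem132b, Fam50a and Hsd17b4 the DkkMo cultures stand apart from both other groups, and in Egr1, Errfi1, Rsad2 and Itgb7 the DkkMo and scrMo cultures both lie away from NT.

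Gene lists for pathways and cell types were read by the number of DE members and by the median difference, beside a background of 1.12% of all genes upregulated, 1.54% downregulated and a median difference of -0.01 over all genes. The NT cultures also serve as the control of scrMo minus NT, so the median of that comparison is printed beside that of DkkMo as a second value and not as support for it. Members that were not DE and are named beside DE members were chosen after their values were seen. Counts of DE members are on the deposited scale, and where those on the log2 count scale differ they stand beside the median. After quantile normalization 7 medians, all from -0.12 to 0.05 before it, changed sign: those of the ATF4, BCL2 family, metalloproteinase, lysosome, other-tissue, osteoblast and chondrocyte, and NF-κB lists. Among the genes taken by the naming rule it also ended the calls of Fosl1, Sox2, Ccn1, Plk3, mt-Co1, mt-Tv, mt-Ts1, mt-Tn, mt-Ta, mt-Tc, Atp5h, Rpl17, Rps27, Rpsa, Rps23, Rpl39, Rps24, Mt2, Ilk, Ccl7, Ctsl, Cd63, Ltbp1 and Lyz2. The call of Malsu1, chosen after its values were seen, ended as well. All of these genes kept their direction at 0.32 to 0.58 from 0.

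Canonical Wnt targets gave no upregulated gene among 27 of 40 listed that were tested, and 4 downregulated genes (median -0.11, and -0.10 for scrMo, with 3 higher and 4 lower on the log2 count scale). Plaur, the urokinase receptor, stood at 6585, 6733 and 6553 in NT and 3348, 2907 and 3112 in DkkMo cultures, 2.12-fold lower (-1.02, SE 0.09, adjusted p = 8.2e-08). Fosl1, an AP-1 subunit, stood at 18608 to 19076 in NT and 9886 to 11346 in DkkMo cultures (-0.79), Sox2, a stem cell factor, at 3473 to 3625 and 1911 to 2352 (-0.69), and Ccn1, a matricellular protein, at 18697 to 19388 and 11277 to 12459.8 (-0.68). These 4 are targets of other pathways as well, and after quantile normalization only Plaur stayed past the fold threshold. Axin2, the negative feedback gene that is the most widely used Wnt readout, had mean counts of 42.3 in NT and 44.9 in DkkMo cultures (0.02, SE 0.07, adjusted p = 0.82). Lef1 and Tcf7 had differences of -0.13 and -0.09, Myc of -0.39 and Ccnd1 of -0.42, none past 1.5-fold. Ccn4, also named Wisp1, was the highest of the list at 0.56 (mean counts 729.9 and 1193), just short of the threshold.

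Among 22 tested of 43 Wnt ligands, receptors and antagonists, no gene was DE (median 0.08, and 0.15 for scrMo, with 2 higher and none lower on the log2 count scale). The largest differences were those of Dkk3, a relative of Dkk-1, at 811, 775 and 812 in NT and 1293, 1217 and 1197 in DkkMo cultures (0.50, SE 0.11, adjusted p = 0.0016), and of Lrp5, a co-receptor bound by Dkk-1, at 2725, 2612 and 2743 in NT and 1914, 1791 and 2001 in DkkMo cultures (-0.45, SE 0.06, adjusted p = 5.6e-06). The other co-receptor, Lrp6, had a difference of -0.18 (adjusted p = 0.075). The receptor Fzd7 and the atypical receptor Ryk had differences of 0.35 and 0.30, and the ligand Wnt7b one of -0.34. Dkk3 was past 1.5-fold on the log2 count scale (0.63).

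Immediate early and AP-1 genes, the first transcripts induced by serum and growth factors, held 7 downregulated and no upregulated genes of 30 tested (median -0.19, and -0.26 for scrMo, with 1 higher and 8 lower on the log2 count scale). Besides Egr1, Dusp5 and Fosl1 these were Ier2, at 3386 to 3674 in NT and 1350.1 to 1692 in DkkMo cultures (-1.04), Egr3 (378 to 503 and 107 to 132, -0.98), Egr2 (675 to 712 and 268 to 339, -0.83), and Spry2, a feedback inhibitor of receptor tyrosine kinases (1414 to 1534 and 659.7 to 758, -0.86). None of the DkkMo cultures of the 3 Egr genes reached the lowest NT culture. Fosb (-0.57) and Maff (-0.54) were short of the fold threshold, Jun was 0.26 and Fos -0.30 (adjusted p = 0.16).

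Some of the adhesion genes fell. Of 34 tested of 40 integrin, laminin and focal adhesion genes, 7 were downregulated and 1 upregulated (median 0.01, and -0.08 for scrMo, with 5 higher and 7 lower on the log2 count scale). Itgb7, the integrin β7 chain, was among the most abundant genes that fell, at 37062, 39982 and 38758 in NT and 18786, 17440.4 and 18535 in DkkMo cultures (2.11-fold, -1.07, SE 0.06, adjusted p = 7.3e-10). Itga5, a chain of the fibronectin receptor, stood at 21622, 23958 and 21939.9 in NT and 11458, 11489 and 11694 in DkkMo cultures (-0.94). Tnc, the matrix protein tenascin-C, stood at 182, 171 and 211 in NT and 33.5, 36.8 and 30.3 in DkkMo cultures, 5.60-fold lower by mean count and -0.87 on the compressed scale. Parvb, Zyx, Ilk and Pxn, which link integrins to actin, had differences of -0.85, -0.80, -0.69 and -0.67. After quantile normalization 5 genes of the list were called lower and 1 higher. Itgb3, the integrin β3 chain, went the other way, from 162, 183 and 209.6 to 578, 525 and 524 (0.92, SE 0.12, adjusted p = 8.8e-06). Zyx separated the morpholinos, with 4729.8 to 4951 in scrMo against 3163 to 3420.1 in DkkMo cultures (-0.52, adjusted p = 3.0e-05), whereas the scrMo cultures of Itgb7 (14962 to 16877), Itga5 (10171 to 12394) and Itgb3 (574 to 685) lay on the DkkMo side of NT.

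Of 39 tested TGF-β and BMP signalling genes 3 were downregulated (median -0.06, and -0.07 for scrMo, with 2 higher and 4 lower on the log2 count scale). Bmp7, a bone-inducing ligand, stood at 5367, 5905 and 5719 in NT and 2512, 2345 and 2574 in DkkMo cultures (-1.11, SE 0.07, adjusted p = 1.6e-09). Tgfbi, a matrix protein induced by TGF-β, was at 1232 to 1418 and 503 to 525 (-1.03), and Ltbp1, which stores latent TGF-β in the matrix, at 6689 to 6853 and 4055 to 4151 (-0.69). Of 24 contractile targets of SRF and YAP, Mylk, the myosin light chain kinase, was upregulated (167 to 184 and 459.6 to 488, 0.82) and Ccn1 downregulated (median 0.07, and 0.02 for scrMo, with 4 higher and 1 lower on the log2 count scale).

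Of 36 collagens and collagen-processing enzymes 3 were upregulated and none downregulated (median 0.07, and 0.11 for scrMo, with 5 higher and 1 lower on the log2 count scale). Col1a2, a chain of bone's main collagen, stood at 2218, 2137 and 2100.5 in NT and 3983, 4005 and 4146 in DkkMo cultures (0.83, SE 0.13, adjusted p = 5.2e-05), and its partner Col1a1 had a difference of 0.40 (adjusted p = 0.11). Col7a1, the anchoring fibril collagen, was at 224 to 276 and 578 to 666 (0.81) with scrMo at 332 to 344, and Col12a1 at 202 to 234 and 412 to 527 (0.67, adjusted p = 0.025). The Col12a1 call was lost without NT replicate 1 (0.65), NT replicate 2 (0.66), DkkMo replicate 2 (0.67) or DkkMo replicate 3 (0.61). No lineage gene of osteoblasts or chondrocytes was DE (median 0.05, and 0.00 for scrMo, with 1 higher and none lower on the log2 count scale). The master regulators of these lineages, Runx2 and Sox9, had the largest differences, Runx2 at 5718, 5514 and 5644 in NT and 3561, 3863 and 4002 in DkkMo cultures (-0.53, SE 0.07, adjusted p = 1.8e-05) and Sox9 at 9097, 8667 and 9248 in NT and 5933, 5843 and 6593 in DkkMo cultures (-0.54, SE 0.09, adjusted p = 1.6e-04). Spp1, osteopontin, the most abundant gene of the list, was -0.38. Of 26 matrix metalloproteinase, ADAMTS and TIMP genes, Adamts5, an aggrecan-cleaving enzyme, was upregulated (114 to 167 and 329.5 to 390.1, 0.73) and no other gene was DE (median -0.02, and 0.16 for scrMo, with 5 higher and 1 lower on the log2 count scale).

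Cytosolic ribosomal protein genes made up 17 of the 255 downregulated genes. All 70 tested had a negative difference with DkkMo, 63 of them at an adjusted p below 0.05 and the 17 also past 1.5-fold, with a median of -0.51 and a range from -0.77 to -0.04. Rpsa, a protein of the small subunit, stood at 79801, 89258 and 81436 in NT and 53667, 49967 and 49916 in DkkMo cultures, 1.63-fold lower (-0.70, SE 0.10, adjusted p = 3.4e-05). Rps23 (-0.70), Rps24 (-0.69), Rps27 (-0.70) and Rpl39 (-0.69) moved by like amounts, and Rpl17 (-0.77, SE 0.23) rested on an adjusted p of 0.013, at 37544, 28188 and 27746 in NT and 20721, 15618 and 17941 in DkkMo cultures. The scrMo median was -0.58. These genes are among the most abundant and have many processed copies in the genome. After quantile normalization the median was -0.24 and none of the 70 was called, while the log2 count scale called 18 lower, so the number of DE ribosomal protein genes depended on the scaling. The Rpl17 call was lost without NT replicate 1 (-0.63) or DkkMo replicate 2 (-0.67).

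Interferon-stimulated genes, the antiviral set that cells switch on in response to interferon, held 5 upregulated and no downregulated genes. Of the 45 tested of 52 listed, 37 had a positive difference and the median was 0.30 (0.40 for scrMo). Rsad2, the antiviral enzyme viperin, stood at 639, 620.1 and 633 in NT and 1261, 1615 and 1531 in DkkMo cultures, 2.33-fold higher (0.95, SE 0.11, adjusted p = 2.2e-06). Ifit2 stood at 231, 219.8 and 235 in NT and 585, 697 and 643 in DkkMo cultures (0.93, SE 0.09, adjusted p = 1.7e-07), Ifit1 at 449 to 513 and 897 to 1082 (0.80), and Ifit3b, which shares reads with close copies, at 159 to 188 and 392 to 463 (0.73). The Ifit proteins bind viral RNA. The scrMo cultures of Rsad2 (1413 to 1772) and Ifit2 (614 to 768) overlapped the DkkMo cultures. Samd9l, an antiviral and growth-restricting protein, differed between the morpholinos. It was at 709, 784 and 729 in NT, 1273, 1449 and 1277 in DkkMo and 812, 788 and 749 in scrMo cultures, above NT by 0.67 (SE 0.09, adjusted p = 6.7e-06) and above scrMo by 0.61 (SE 0.09, adjusted p = 4.6e-05). The transcription factors Irf7 (0.02, adjusted p = 0.87), Irf9 (-0.25) and Stat2 (0.42) were not DE. Voom and the log2 count scale each called 17 of the 45 higher and none lower.

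The promoters of the listed genes were read for the interferon-stimulated response element, searched as GAAANNGAA on both strands over 250 bases before and 50 after each RefSeq start (GRCm38.p6). It occurred in 2812 of 32851 promoters (8.56%) and in 22 of the 33 listed genes that have a promoter in the table (66.7%). A listed gene was counted once when any of its promoters held the motif. The share of listed genes and the share of promoters thus differ in unit, here and for the motifs below. Of the 5 upregulated genes, 4 held the element, in Samd9l after the start, and Ifit2 did not. The 200 bases before the start are shown for the other 3, with matches in capitals. All matches in these 3 are on the strand opposite to the gene, so that each is printed as the reverse complement of the motif. Rsad2 (chr12:26456453-26456652, minus strand) has 1 match, 119 bases before the start, Ifit1 (chr19:34640689-34640888, plus strand) has 3, of which 2 overlap, and Ifit3b (chr19:34607757-34607956, plus strand) has 3.
Rsad2: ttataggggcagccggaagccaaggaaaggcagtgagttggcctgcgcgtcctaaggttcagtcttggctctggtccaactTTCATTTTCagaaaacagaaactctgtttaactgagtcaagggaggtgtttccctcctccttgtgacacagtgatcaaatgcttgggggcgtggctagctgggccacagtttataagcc
Ifit1: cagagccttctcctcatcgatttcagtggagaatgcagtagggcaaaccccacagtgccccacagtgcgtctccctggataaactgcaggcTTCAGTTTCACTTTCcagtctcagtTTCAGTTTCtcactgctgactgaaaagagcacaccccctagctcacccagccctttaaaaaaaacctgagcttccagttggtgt
Ifit3b: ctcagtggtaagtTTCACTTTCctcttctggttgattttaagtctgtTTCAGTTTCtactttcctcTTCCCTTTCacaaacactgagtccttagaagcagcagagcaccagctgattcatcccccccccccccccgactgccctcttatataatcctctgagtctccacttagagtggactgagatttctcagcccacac

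Antigen presentation by MHC class I, which interferon also raises, had no DE gene among 21 tested (median -0.04, and 0.11 for scrMo). Its largest differences included those of Pdia3, a chaperone of the loading complex, at 20781 to 22541 and 29036 to 33239 (0.54), and B2m, the light chain of MHC class I, at 26117 to 28081 and 18504 to 19894 (-0.46). Of 14 tested chemokine ligands 1 was upregulated and 1 downregulated (median 0.12, and 0.21 for scrMo, with 4 higher and 1 lower on the log2 count scale). Cxcl10, an interferon-induced attractant of T cells, stood at 191, 200.1 and 174 in NT and 496, 613 and 537 in DkkMo cultures (0.91, SE 0.11, adjusted p = 3.3e-06), and Ccl7, an attractant of monocytes, at 2653 to 2854 and 1632 to 1786 (-0.59). Of 27 NF-κB feedback and acute phase genes, Csf1, the growth factor of macrophages and osteoclast precursors, was upregulated (6656 to 7660.4 and 11384 to 11539.8, 0.64) and reached 19166 to 22859 in scrMo cultures. The NF-κB inhibitor Tnfaip3 (3651 to 4151 and 2125 to 2231, -0.75) and the NF-κB subunit Relb (2081 to 2323 and 1176 to 1304, -0.70) were downregulated (median 0.01, and 0.12 for scrMo, with 5 higher and 3 lower on the log2 count scale). The Ccl7 call was lost without NT replicate 2 (-0.56) or DkkMo replicate 3 (-0.57). The Csf1 call was lost without NT replicate 2 (0.58). Of the 6 leukocyte markers, Lyz2, lysozyme, was upregulated (84.4 to 117 in NT and 230.3 to 251 in DkkMo cultures, 0.60, list median 0.06, and -0.05 for scrMo, with 2 higher and 1 lower on the log2 count scale). The Lyz2 call was lost without NT replicate 1 (0.58), NT replicate 3 (0.56) or DkkMo replicate 3 (0.58). None of the 5 markers of other tissues was DE (median 0.01, and 0.13 for scrMo, with 1 higher and none lower on the log2 count scale), with Tubb3 at 0.26.

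Chaperones of the endoplasmic reticulum, which the unfolded protein response raises, were upregulated in 4 of 19 tested and downregulated in none (median 0.36, and 0.30 for scrMo, with 7 higher and none lower on the log2 count scale). Hspa5, the main chaperone BiP, stood at 83675, 87063 and 85484 in NT, 135067, 130721 and 125543 in DkkMo and 143101, 145424 and 149563 in scrMo cultures, 1.53-fold higher with DkkMo than NT (0.61, SE 0.16, adjusted p = 0.0047). Herpud1, which serves degradation of misfolded proteins, stood at 3965, 3691 and 4019.8 in NT and 6713, 6246 and 6752 in DkkMo cultures (0.71, SE 0.12, adjusted p = 1.5e-04), Sdf2l1 at 2308 to 2498 and 3678 to 4233 (0.66), and Pdia4, a disulfide isomerase, at 14914 to 15663 and 21441 to 25791 (0.61). Just under the fold threshold were Creld2 (0.58), Sel1l (0.58) and Dnajc3 (0.56), while the regulators Xbp1, Atf6 and Ern1 had differences of -0.16, -0.01 and -0.18. The Hspa5 call was lost without DkkMo replicate 1 (0.58). The Pdia4 call was lost without DkkMo replicate 1 (0.54). After quantile normalization 10 genes of the list were called higher and none lower. A search chosen after these values were seen looked for the ER stress response element, CCAAT and CCACG with 9 bases of any kind between them, on both strands. It occurred in 39 of 32851 promoters (0.119%), in 6 of the 16 listed genes with a promoter in the table (37.5%), and in 1 of the 4 upregulated genes. That gene is Hspa5, whose 200 bases before the start (chr2:34771890-34772089, plus strand, GRCm38.p6) hold it in capitals, beginning 65 bases before the start.
Hspa5: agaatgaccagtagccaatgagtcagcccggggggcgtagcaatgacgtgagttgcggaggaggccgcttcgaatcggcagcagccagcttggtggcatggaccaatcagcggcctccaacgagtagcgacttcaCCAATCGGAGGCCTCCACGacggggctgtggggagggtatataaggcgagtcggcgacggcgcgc

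Of 21 heat shock proteins, co-chaperones and Hsf factors, cytosolic but for the mitochondrial Hspd1 and Hspe1 and the nuclear factors, none was DE, and 18 had a negative difference (median -0.24, and -0.75 for scrMo). Ahsa1, an activator of Hsp90, stood at 9458, 10486 and 10003 in NT, 6871, 6931 and 7147 in DkkMo and 5429.5, 4492 and 4718 in scrMo cultures (-0.50, SE 0.07, adjusted p = 1.8e-05), and Hspe1, a co-chaperonin, at 29523 to 36814, 22587 to 24516 and 14404 to 19308 (-0.46). After quantile normalization the median was -0.01 and 1 gene was called higher. The heat shock element (GAANNTTC) occurred in 9 of the 16 listed genes that have a promoter and in 7.86% of all promoters. Of 35 genes of the ATF4 amino acid response, Cth, which makes cysteine, was downregulated and none was upregulated (median -0.07, and -0.02 for scrMo). Cth stood at 742, 684 and 775 in NT, 382, 449 and 326 in DkkMo and 917, 837 and 898 in scrMo cultures (-0.64, SE 0.10, adjusted p = 3.7e-05, and -0.85 against scrMo with an adjusted p of 4.6e-06). Ddit3 (0.29, adjusted p = 0.068), Asns (-0.33) and Trib3 (0.28, adjusted p = 0.062), which respond to amino acid shortage, were not DE. The Cth call was lost without DkkMo replicate 3 (-0.57). The amino acid response element (TGATGNAA) occurred in 9 of the 28 listed genes that have a promoter and in 3.97% of all promoters.

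Of 24 p53 targets 3 were upregulated and 1 downregulated (median 0.23, and 0.40 for scrMo, with 8 higher and 1 lower on the log2 count scale). Beside Trp53inp1 these were Ccng1, a cyclin-like regulator of p53, at 3709, 3540.2 and 3811 in NT, 7228, 7423 and 6793 in DkkMo and 9619, 11336 and 10528 in scrMo cultures (0.90, SE 0.07, adjusted p = 2.3e-08), Eda2r, a death receptor, at 521 to 563, 1087 to 1165 and 1115 to 1347 (0.78), and Plk3, a stress kinase, at 4546 to 5103, 2918 to 3098 and 2309 to 2777 (-0.62). Rrm2b (0.56), Btg2 (0.52) and Zmat3 (0.49) were short of the fold threshold. The best known targets, the cell cycle inhibitor Cdkn1a (0.14, adjusted p = 0.16), the pro-apoptotic Bax (0.21, adjusted p = 0.13) and Mdm2 (-0.19, adjusted p = 0.063), were not DE, and the pro-apoptotic Bbc3 was -0.35. The Plk3 call was lost without NT replicate 2 (-0.58). None of 32 genes of the BCL2 family, caspases and death receptors was DE (median -0.05, and 0.02 for scrMo, with 3 higher and none lower on the log2 count scale), the largest differences being those of Tnfrsf1a, a TNF receptor (4627 to 4728 and 3038 to 3249.6, -0.52), and Casp12, an ER-associated caspase (108 to 157 and 256 to 277, 0.50).

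None of 38 mitosis and spindle genes was DE, although 30 had a positive difference (median 0.14, and 0.06 for scrMo, with 14 higher and none lower on the log2 count scale). Mki67, the proliferation marker, stood at 68.1, 85.0 and 65.4 in NT and 140.0, 174 and 215 in DkkMo cultures (0.51, SE 0.14, adjusted p = 0.0064), against 3656 to 4286 in NT cultures in log phase. Top2a, a topoisomerase of dividing cells, stood at 249.8, 281 and 265 in NT and 389.6, 414 and 428 in DkkMo cultures (0.38). On the log2 count scale Mki67 differed by 1.25. Voom called 8 of the 38 higher. In bulk RNA, fewer cells of a kind and less RNA per cell cannot be told apart. None of 42 replication genes was DE (median -0.11, and -0.08 for scrMo, with 1 higher and none lower on the log2 count scale), with Mcm7, a helicase subunit, at 2302 to 2528 in NT, 1566 to 1683 in DkkMo and 2264 to 2435 in scrMo cultures (-0.49) and Pold1, a DNA polymerase, at -0.46.

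Of 44 glutathione, NRF2 and redox enzymes 2 were upregulated and 3 downregulated (median 0.01, and 0.10 for scrMo, with 5 higher and 3 lower on the log2 count scale). Hmox1, the haem-degrading stress enzyme, stood at 39675, 51508 and 44988 in NT and 68973, 76851 and 79131 in DkkMo cultures (0.73, SE 0.16, adjusted p = 0.0015), with scrMo at 52739.9 to 65659.9, and Gstm2, a glutathione transferase, at 702 to 781 and 1317 to 1391 (0.67). Prdx5, a peroxiredoxin, stood at 15718, 16843 and 15524 in NT and 8558, 7607 and 8044 in DkkMo cultures (-0.97, SE 0.10, adjusted p = 4.2e-07), Gpx8, a glutathione peroxidase of the ER, at 5330.4 to 6099 and 2939.9 to 3211 (-0.82), and Mt2, a metallothionein, at 4411 to 4956 and 2766 to 3240.5 (-0.64). Nqo1 (0.43), Gclm (0.26) and Srxn1 (0.06, adjusted p = 0.52), which like Hmox1 are NRF2 targets, were not DE. The antioxidant element (TGACNNNGC) occurred in 10 of the 37 listed genes that have a promoter and in 12.4% of all promoters.

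Of 15 tested aldehyde dehydrogenases, Aldh3a1 was downregulated and none was upregulated (median -0.03, and 0.09 for scrMo, with 2 higher and 3 lower on the log2 count scale). Aldh3a1, the most abundant of them, stood at 31203, 30150.4 and 29286 in NT, 15832, 14816 and 15581 in DkkMo and 19056, 20656 and 21809 in scrMo cultures (1.96-fold, -0.96, SE 0.10, adjusted p = 6.3e-07, and -0.40 against scrMo with an adjusted p of 0.0064). Aldh2 was next in abundance, with means of 15053 and 10471 (-0.51). Of 39 peroxisome and fatty acid oxidation genes, Cpt1c, a carnitine palmitoyltransferase, was upregulated (755 to 777 and 1358 to 1421, 0.69) and Hsd17b4 downregulated (median 0.03, and 0.15 for scrMo).

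Insig1, which retains the sterol sensor Scap in the ER, was the only DE gene of 33 for sterol and fatty acid synthesis (median 0.02, and 0.11 for scrMo, with 4 higher and 1 lower on the log2 count scale). It stood at 2436, 2451 and 2342 in NT, 4909, 5364 and 5288 in DkkMo and 6442, 7808 and 7638 in scrMo cultures (2.15-fold, 1.02, SE 0.09, adjusted p = 9.0e-08). At an adjusted p alone 7 members were higher and 7 lower. The enzymes Msmo1, Scd1 and Sqle were among the lower ones, at -0.51, -0.44 and -0.38, and Acacb, Fads2 and Acss2 among the higher ones, at 0.55, 0.40 and 0.26. The sterol element (TCACNCCAC) occurred in 1 of the 24 listed genes that have a promoter and in 1.24% of all promoters. Of 34 glycolysis and hypoxia genes, Pfkl, the liver-type phosphofructokinase, and Ankrd37, a HIF target, were downregulated and none was upregulated (median -0.08, and -0.15 for scrMo, with 1 higher and 2 lower on the log2 count scale). Pfkl stood at 5625, 5404 and 5272 in NT and 3433, 2888 and 3151 in DkkMo cultures (-0.74, SE 0.18, adjusted p = 0.0028), and Ankrd37 at 644 to 776 and 332 to 367 (-0.72). Of 40 lysosome and autophagy genes Ctsl, a cathepsin (-0.59), and Cd63, a membrane protein of late endosomes (-0.59), were downregulated just past the threshold (median -0.12, and 0.02 for scrMo, with none higher and 3 lower on the log2 count scale). The Ctsl call was lost without NT replicate 1 (-0.57) or DkkMo replicate 1 (-0.57). The Cd63 call was lost without NT replicate 2 (-0.53), DkkMo replicate 2 (-0.58) or DkkMo replicate 3 (-0.56). The TCF site (CTTTGAA or CTTTGAT), searched for the Wnt targets, occurred in none of the 16 of them that have a promoter and in 8.65% of all promoters.

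**Figure D3:**
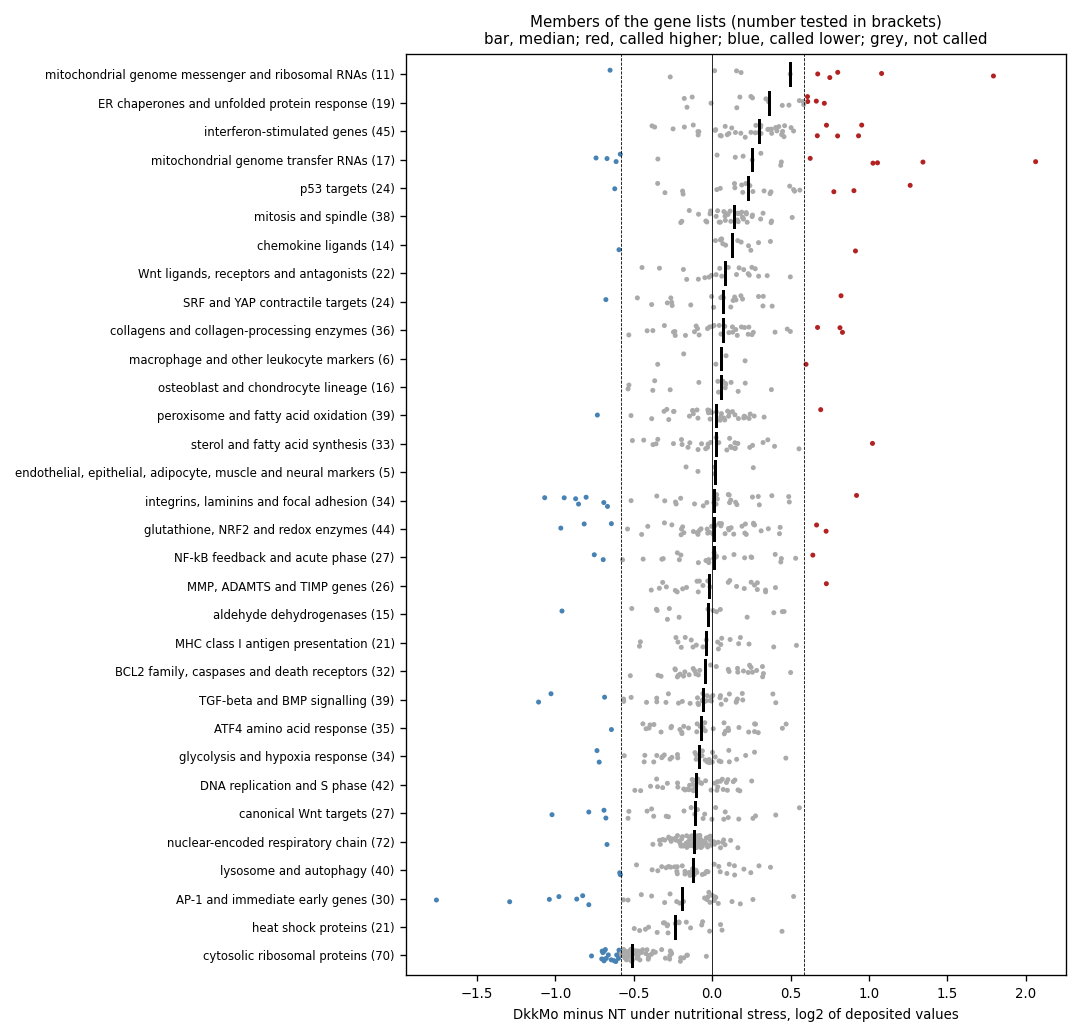
DkkMo minus NT differences (log2 of deposited values, x axis) for the tested members of the 32 gene lists, ordered by median (black bars), with upregulated members in red, downregulated in blue and genes not called in grey. The ribosomal protein list lies wholly left of 0, and the lists of mitochondrial transcripts, ER chaperones and interferon-stimulated genes have the highest medians.

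Transcripts of the mitochondrial genome gave the largest rises of the comparison, and some of its falls. The circular genome is transcribed from both strands as long precursors that are cut at the transfer RNAs into ribosomal RNAs, messengers and transfer RNAs. Of 11 tested messengers and ribosomal RNAs, 5 were upregulated and 1 downregulated (median 0.50), and of 17 transfer RNAs 5 were upregulated and 4 downregulated (median 0.26). The log2 count scale called 6 messengers or ribosomal RNAs higher and 1 lower, and 8 transfer RNAs higher and 4 lower. The medians of scrMo minus NT were 1.78 and 1.07. mt-Nd2, a subunit of complex I (chromosome M, bases 3914 to 4951, plus strand, GRCm38), stood at 23962, 25046 and 22498 in NT, 86882, 87938 and 75559 in DkkMo and 246760, 236100 and 235524 in scrMo cultures. DkkMo was 3.50-fold above NT (1.79, SE 0.08, adjusted p = 2.7e-11). mt-Tm, the methionine transfer RNA directly before it (bases 3845 to 3913), stood at 44.5, 41.5 and 46.5 in NT, 859, 809 and 683 in DkkMo and 2715, 2588 and 2675 in scrMo cultures, 17.7-fold higher (2.06, SE 0.08, adjusted p = 1.3e-11). mt-Tq, the glutamine transfer RNA on the other strand (bases 3772 to 3842), stood at 9789, 10164 and 9220.3 in NT, 25457, 26771 and 23236 in DkkMo and 122160, 121966 and 113800 in scrMo cultures (1.34, SE 0.07, adjusted p = 3.0e-10).

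The genes are described in 3 stretches of the genome, cut after mt-Nd2 and after mt-Ts1 once their values had been seen. Of the 9 tested genes from mt-Tf to mt-Nd2, 8 were upregulated and none downregulated (median 1.05). These included the ribosomal RNAs mt-Rnr1, at 10696, 11442 and 9707 in NT and 17653, 18431 and 15251 in DkkMo cultures (0.67), and mt-Rnr2, at 16081, 17142 and 15150.1 in NT and 34427, 37200.1 and 31705 in DkkMo cultures (1.08), as well as mt-Tl1 (1.05) and mt-Nd1 (0.80). Of the next 6 genes, from mt-Ta to mt-Ts1, 5 were downregulated and none upregulated (median -0.63). By strand, 9 of 19 plus-strand genes were upregulated and 1 downregulated, and 1 of 9 minus-strand genes was upregulated and 4 downregulated. Since 5 of the 6 genes from mt-Ta to mt-Ts1 are on the minus strand, position and strand cannot be told apart for them. mt-Co1, a subunit of cytochrome oxidase and the most abundant of the tested mitochondrial genes in NT, stood at 249749, 262664 and 245605 in NT and 150838, 168058 and 163654 in DkkMo cultures (-0.65, SE 0.08, adjusted p = 6.8e-06), and the overlapping mt-Ts1 at 128781, 138211 and 125528 in NT and 72049.7, 81216 and 81419 in DkkMo cultures (-0.74). The asparagine, alanine and cysteine transfer RNAs mt-Tn, mt-Ta and mt-Tc had differences of -0.67, -0.61 and -0.59. The mt-Tn call was lost without NT replicate 2 (-0.58). The mt-Ta call was lost without NT replicate 2 (-0.53) or DkkMo replicate 3 (-0.58). The mt-Tc call was lost without NT replicate 2 (-0.51), DkkMo replicate 1 (-0.55) or DkkMo replicate 3 (-0.58). Of the last 13 tested, mt-Atp8 (0.75) and mt-Tt (1.03) were upregulated and none was downregulated (median 0.20). The next tested gene after mt-Ts1, mt-Co2, still had a negative difference (-0.27, adjusted p = 0.38), with mean counts of 616 in NT and 453 in DkkMo cultures. mt-Nd6, mt-Nd5 and mt-Cytb had differences of 0.015, 0.16 and 0.18, each with an adjusted p above 0.05. After quantile normalization 5 messengers or ribosomal RNAs and 4 transfer RNAs were called higher and none of either lower.

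The scrMo cultures had still higher levels in most of these genes: mt-Rnr2 read 399541, 376089 and 338838 there and mt-Rnr1 241484, 223218 and 200965. mt-Co1 was lower again, at 84925, 86447 and 86986, and mt-Tn, mt-Ta and mt-Tc, which were lower with DkkMo than NT, were higher with scrMo than NT by 0.22, 0.19 and 0.50. Libraries were made from RNA selected with oligo(dT) beads, and how the counting treated strand, reads that overlap 2 genes and reads that also fit nuclear copies of the mitochondrial genome is not given in the sources used here. Counts of neighbouring and overlapping mitochondrial genes are therefore uncertain. The nuclear-encoded subunits of the respiratory chain did not rise with them. Of 72 tested, 62 were lower, 18 at an adjusted p below 0.05, and Atp5h, a subunit of ATP synthase, was the only DE gene (3765, 4275 and 3729.7 in NT and 2432, 2381 and 2255 in DkkMo cultures, -0.67, SE 0.07, adjusted p = 9.1e-07), with a list median of -0.11 (-0.14 for scrMo).

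**Figure D4:**
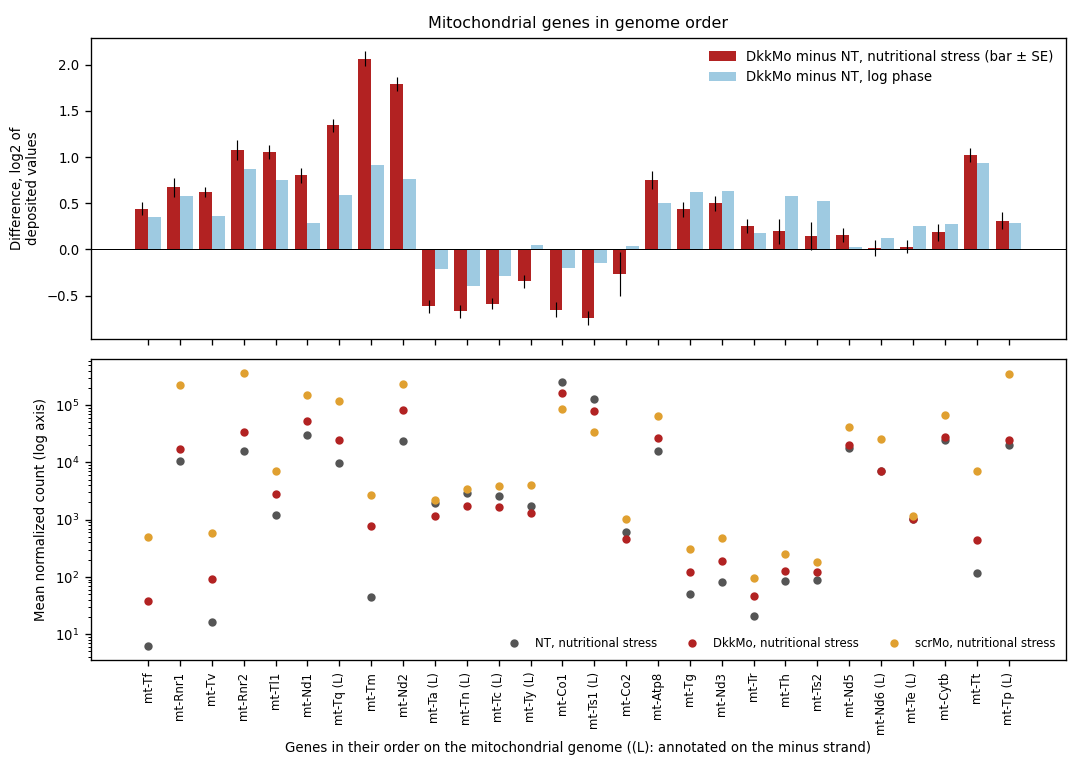
Tested mitochondrial genes in genome order. The upper panel gives DkkMo minus NT in the log2 of deposited values under nutritional stress (red, bars with SE) and in log phase (light blue), and the lower panel the mean normalized count (log axis) of the NT, DkkMo and scrMo cultures under stress (n = 3 each). Genes up to mt-Nd2 stand above 0 and those from mt-Ta to mt-Ts1 below 0 under stress.

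The effect of DkkMo under stress was set against its effect in log phase, where 3 DkkMo and 3 NT cultures share no library with the stressed ones. Both effects were taken against NT, so blocking of Dkk-1 and exposure to any morpholino cannot be told apart in them. In log phase 85 genes were upregulated and 52 downregulated (0.513% and 0.314% of genes). Of the 186 genes upregulated under stress, 128 had a positive difference in log phase, 11 were upregulated there and 1 was downregulated, with a median difference of 0.11 against 0.70 under stress. Of the 255 downregulated under stress, 137 had a negative difference in log phase, 11 were downregulated and 4 upregulated, with medians of -0.01 and -0.69. The genes upregulated in both conditions were mt-Tm, mt-Nd2, mt-Tq, Pdk4, mt-Rnr2, mt-Tl1, mt-Tt, Ephx1, S100a4, Hmox1 and H2bc8. Il1rl1, Fam50a, Gpr149, Gas7, Tgfbi, Gfra1, Gm11100, Cemip, Thoc7, Adgrg6 and Cth were downregulated in both. Pdk4 differed by 0.69 in log phase (adjusted p = 3.1e-05), Hmox1 by 1.11, Fam50a by -0.63 and Hsd17b4 by -0.46. Aldh1a1, at 32.9, 19.2 and 33.9 in NT and 11.1, 6.95 and 8.14 in DkkMo cultures in log phase, differed by -0.28, and its effects in the 2 conditions differed by 0.00 (SE 0.08, adjusted p = 0.97).

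A test of the difference between the effects, stress minus log phase, called 254 genes with the higher value under stress and 395 with the lower (1.53% and 2.38%, together 3.92%). For interferon-stimulated genes the median difference was 0.30 under stress and -0.38 in log phase, and 25 of the 45 were called in the test, all with the higher value under stress. Gbp9, an interferon-induced GTPase outside the list, had the largest positive value of the test among genes with a standard symbol. It stood at 221, 187 and 205 in NT and 576, 704 and 695 in DkkMo cultures under stress, and at 739, 753 and 809 in NT and 297, 288 and 370.2 in DkkMo cultures in log phase. Its effect was 1.04 under stress and -0.86 in log phase, a difference of 1.902 (SE 0.09, adjusted p = 6.9e-10). Oas2, an antiviral RNA sensor, stood at 594, 732 and 556 in NT and 872, 917 and 1039 in DkkMo cultures under stress and at 6329, 6289 and 7273 in NT and 2056, 2229 and 3929.8 in DkkMo cultures in log phase (1.69, SE 0.23, adjusted p = 3.4e-05). Ifi44 (39.4 to 47.4 and 108 to 130.4 under stress, 1460.4 to 1685 and 577 to 833 in log phase, 1.45), Rsad2 (1.43) and Gvin1, a large interferon-induced GTPase with close copies (1.34), followed. In these 5 genes the DkkMo cultures were above NT under stress and below NT in log phase, and in Ifi44 and Oas2 the NT cultures in log phase were far above those under stress. The scrMo cultures under stress were above NT as well, by 1.08 for Gbp9, 0.70 for Oas2, 0.91 for Ifi44, 1.01 for Rsad2 and 0.68 for Gvin1. The scrMo cultures in log phase were not compared.

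Of the genes with the lower value under stress, Egr1 had an effect of -1.76 under stress and 0.12 in log phase (13522, 12917 and 12846 in NT and 14899.9, 13797 and 14059 in DkkMo cultures), a difference of -1.88 (SE 0.14, adjusted p = 1.1e-07). Foxs1 differed by -1.51, and Tnfaip3, at 3398, 2815 and 2418 in NT and 4974, 4817 and 6066 in DkkMo cultures in log phase, by -1.57 (SE 0.14, adjusted p = 6.7e-07). Of the 30 immediate early genes 13 were called in the test, all lower under stress, and their median was -0.19 under stress and 0.07 in log phase. The 70 ribosomal protein genes had medians of -0.51 and 0.05, and 30 were called lower under stress. Of 34 glycolysis and hypoxia genes 21 were called, all lower under stress, with medians of -0.08 and 0.56. For this list the move was in log phase. Pfkl stood at 4086, 2704 and 2718 in NT and 6179, 5858 and 5682 in DkkMo cultures there (-1.60, SE 0.25, adjusted p = 1.6e-04), and Txnip, a glucose-responsive inhibitor of thioredoxin that is not in the list, at 1343, 353 and 225 in NT and 2733, 3086 and 2148 in DkkMo cultures (-1.62, SE 0.39, adjusted p = 0.0049). NT replicate 1 in log phase was apart from the other 2 in both genes, at 4086 and 1343. Without that culture the differences were -1.78 and -2.15, further from 0, and both remained called. Without NT replicate 3 in log phase the Txnip difference was -1.27 (adjusted p = 0.014).

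**Figure D5:**
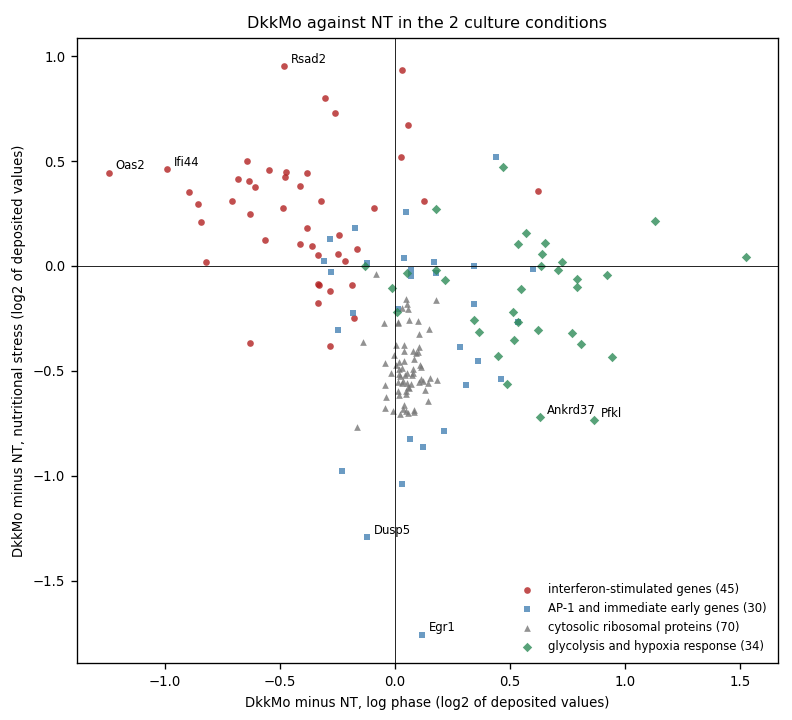
DkkMo minus NT in log phase (x axis) and under nutritional stress (y axis), both in the log2 of deposited values, for the tested members of 4 lists. Most interferon-stimulated genes lie left of and above 0, glycolysis and hypoxia genes lie to the right, and ribosomal protein genes lie near 0 on the x axis and below 0 on the y axis.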

How the data were processed

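RNA of the cultures was sequenced as oligo(dT)-selected libraries. The authors aligned reads to GRCm38 with HISAT2 2.1.0, counted them per gene with SAMtools 1.9 and featureCounts of Subread 2.0.0, and deposited variance-stabilised log2 values made with DESeq2 (version not given in the sources used here). Whole reads were recovered by inverting that transformation and gave normalized counts. The last 14 rows of the table were left out, and the tumour table was not used.

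Deposited values of 18 culture libraries entered one limma 3.58.1 model (R 4.3.3) with a mean per group and a variance trend (12 residual degrees of freedom). P-values were adjusted by Benjamini-Hochberg over 16562 genes. DE genes had an adjusted p below 0.05 and a difference over 1.5-fold, and every adjusted p in the text is from this model unless another scale is named. On simulated data for this comparison over 16562 genes, 65 of 100 genes changed by 2-fold and 84 of 100 changed by 4-fold were called. The labels say only that groups held 3 cultures, so p-values cover the spread between these cultures. Libraries of a group differed beyond counting noise.

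Named genes were the 12 largest rises and falls with a standard symbol and without overlap, up to 6 DE genes per list and direction, up to 2 others where a list had no DE gene, the 5 largest interaction values each way, Aldh1a1 and Hsd17b4. Other genes named were chosen after their values were seen, and some genes are not reported here. The comparison, the lists and the named genes were chosen with earlier results of these data known. Gene coordinates were taken from the GENCODE annotation of GRCm38 and promoters from RefSeq. Alternatives covered the scaling, the scale, the filter, the thresholds, the libraries in the model and each replicate left out.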

Additional observations from a re-analysis of the deposited data

Results flagged for a closer look

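The effect of DkkMo differed between nutritional stress and log phase, by a test of the difference itself, for 254 genes with the higher value under stress and 395 with the lower. The difference is the DkkMo minus NT value under stress minus that in log phase, in log2 of deposited values. NT cultures received no morpholino, so blocking of Dkk-1 and exposure to any morpholino cannot be told apart in this difference. The same difference was not computed for scrMo.

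Among the largest rises it was 1.15 for mt-Tm, 1.03 for mt-Nd2, 0.76 for mt-Tq, 0.93 for Gask1b, 0.84 for Plb1, 0.61 for Pdk4, 0.96 for Trp53inp1, 0.79 for Pmp22, 0.80 for Tmem132b, 0.72 for Pyroxd2 and 1.13 for Usp17la. All of these but Trp53inp1 and Usp17la were also higher with DkkMo in log phase at an adjusted p below 0.05. Trp53inp1 differed there by 0.30 (adjusted p = 0.12) and Usp17la by -0.05 (adjusted p = 0.63). On the deposited scale mt-Tm, mt-Nd2, mt-Tq and Pdk4 were also past the 1.5-fold threshold in log phase. That scale compresses low counts: mean counts in log phase were 9.53 in NT and 32.8 in DkkMo cultures for Tmem132b, and 92.8 and 195 for Plb1.

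Among the largest falls it was -1.88 for Egr1, -1.31 for Errfi1, -1.49 for Pde8b, -1.51 for Foxs1, -0.69 for Il1rl1, -0.78 for Fam50a, -1.17 for Dusp5, -1.46 for Klra4, -0.97 for Il18rap, -1.23 for Rgl1 and -1.28 for Ecm1. Of these, Il1rl1 and Fam50a were also downregulated in log phase.

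The largest positive differences were 1.902 for Gbp9, 1.69 for Oas2, 1.45 for Ifi44, 1.43 for Rsad2 and 1.34 for Gvin1, all of them induced by interferon. Besides Egr1 and Foxs1 the largest negative differences were -1.62 for Txnip, -1.60 for Pfkl and -1.57 for Tnfaip3. Leaving out 1 culture at a time, the Txnip value ranged from -2.15 without log phase NT replicate 1, which stood apart, to -1.27 without log phase NT replicate 3.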

How the results depend on the processing

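Counts of DE genes under stress (186 higher, 255 lower) and of genes in the test between conditions (649) depended most on the scale and the fold threshold. With log2 of normalized counts (1 added) they were 1657, 660 and 2215, and with voom 1635, 670 and 2187. Without a fold threshold they were 3148, 3759 and 4819, and at 2-fold 22, 27 and 80. Quantile normalization gave 144 lower, and testing only genes above the median gene gave 89 higher. The cause of the fall in lower calls after quantile normalization was not tested. The share of DE genes that were higher was 42.2%, 71.5% on the log2 count scale, 70.9% with voom, 57.0% after quantile normalization and 28.2% among genes above the median gene. Leaving out each culture in turn gave 174 to 201 higher, 222 to 275 lower and 566 to 769 between conditions, and the last range includes leaving out log phase cultures, chosen after seeing the data.

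Of the refits of single named genes 1930 kept direction and side of the threshold, 59 fell short of it and 16 newly passed it, and all 207 refits of the genes named for the difference between conditions kept their call. With the replicate numbers as a block 190 genes were higher, 255 lower and 655 called between conditions. The numbers were not taken as a pairing in the main model, since 2 NT libraries share a number. Same-numbered NT and DkkMo libraries correlated at -0.07, -0.05 and -0.01 in their deviations from the group means. The third NT library, numbered 2, correlated at 0.11 with the third DkkMo library. With 3 libraries per group such values cannot exclude a pairing. Low counts limit genes such as Aldh1a1, and 3 cultures per group cannot reach a permutation p below 0.1.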
